A study of Mus musculus with 6 samples.

Results

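The genes described here are the 10 that encode the core of calcium cycling at the sarcoplasmic reticulum (SR): Atp2a2, Pln, Sln, Ryr2, Trdn, Asph, Casq2, Hrc, Srl and Slc8a1. They were taken by gene symbol from a table of 54093 genes, each symbol matched 1 row, and all 10 passed the filter on low values that left 12627 genes for testing. RNA came from right atria (RAs) of wild-type C57BL/6 mice at postnatal day 21 (P21), from 3 sham-operated and 3 volume overload (VO) libraries, named here sham 1 to VO 3. VO was made at P7 by aortocaval fistula (ACF) surgery, a needle puncture joining the abdominal aorta to the inferior vena cava, and sham mice had surgery without the fistula. Pups of both sexes were used, and the labels do not say whether a library is 1 animal or a pool, so p-values measure the spread between libraries, which may be technical.

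In a cardiomyocyte, depolarization lets a little calcium in through the surface membrane, which opens ryanodine receptors (Ryr2) in the SR and releases the stored calcium that drives contraction. The pump SERCA2 (Atp2a2) then returns calcium to the SR, restrained by the small membrane proteins phospholamban (Pln) and sarcolipin (Sln), while the exchanger NCX1 (Slc8a1) moves calcium out across the surface membrane. Sarcolipin is known as an atrial protein of the heart, and calsequestrin (Casq2), the histidine-rich calcium-binding protein (Hrc) and sarcalumenin (Srl) bind calcium inside the SR or act beside the pump, with triadin (Trdn) and junctin (made from Asph) linking calsequestrin to the release channel.

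The reading frames of both pump inhibitors are shown because they lie behind the ratios to Atp2a2 given below, and because each is short enough to lie in a single exon. Both are written from the GENCODE M21 transcripts on GRCm38, with the start and stop codons in capitals and, in Pln, also codons 16 and 17, which encode the serine and threonine known to be phosphorylated when the pump is released.
Sln: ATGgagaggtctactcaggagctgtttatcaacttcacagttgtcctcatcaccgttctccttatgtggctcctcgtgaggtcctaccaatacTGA
Pln: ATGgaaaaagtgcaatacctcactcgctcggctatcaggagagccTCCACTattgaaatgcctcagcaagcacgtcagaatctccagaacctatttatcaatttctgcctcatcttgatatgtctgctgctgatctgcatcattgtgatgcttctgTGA
The Sln frame has 31 codons before the stop and lies at chr9:53853473-53853568 on the plus strand, in exon 2 of 2 of the only annotated transcript. The Pln frame has 52 codons and lies at chr10:53343864-53344022 on the plus strand, in exon 3 of 3, and it is the same in all 6 annotated transcripts. Most of each transcript lies outside the frame, which makes up 7.28% of the 1318 bases of Sln and 20.6% of the 771 bases of the Pln transcript used.

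Values are fragments per kilobase (FPKM), that is, the fragments on a gene divided by its length and by a scaling factor of the library. This factor did not follow the number of fragments on genes. On 1 kilobase, 1 FPKM stood for 15.6 fragments in sham 1 and 18.1 in VO 1, which held 16494342 and 16852482 fragments on genes. The libraries held 15963082 to 17237903 fragments on genes, and the 10 genes together took 1.78% to 2.31% of them, of which Atp2a2 alone took 1.24% to 1.61%. The smallest number of fragments behind any value given for the 10 genes was 1782, for Slc8a1 in VO 3, where the counting error was 2.37%. Xist was above 28 FPKM in 2 libraries of each group, and the Y-linked Ddx3y was above 27 FPKM in the other library of each group. The atrial genes Myl7, Myl4, Nppa and Bmp10 were abundant in all libraries, from 378 to 8501 FPKM, while the ventricular regulator Irx4 was at most 0.259 FPKM.

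Per length, Atp2a2 stood far above its partners, with a mean of 2415 FPKM over the 6 libraries and rank 14 among all genes in the table. Sln followed at 787 FPKM, then Casq2 at 332, Srl at 271, Pln at 151, Hrc at 116, Ryr2 at 52.8, Trdn at 48.2, Slc8a1 at 46.1 and Asph lowest, at 13.3 to 17.6. The pump was thus 3.07 times as abundant as Sln, the next in order, and Sln exceeded Casq2 by 2.37 times. In 4 places neighbours in this order had overlapping ranges over the 6 libraries, namely Casq2 with Srl, Pln with Hrc, Ryr2 with Trdn, and Trdn with Slc8a1. The gene length used for Slc8a1 was 2934 bases, against 18807 bases of annotated exons in GENCODE M21, so its place in the order depends on the gene model. The other 9 lengths were identical to the annotation.

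**Figure D1:**
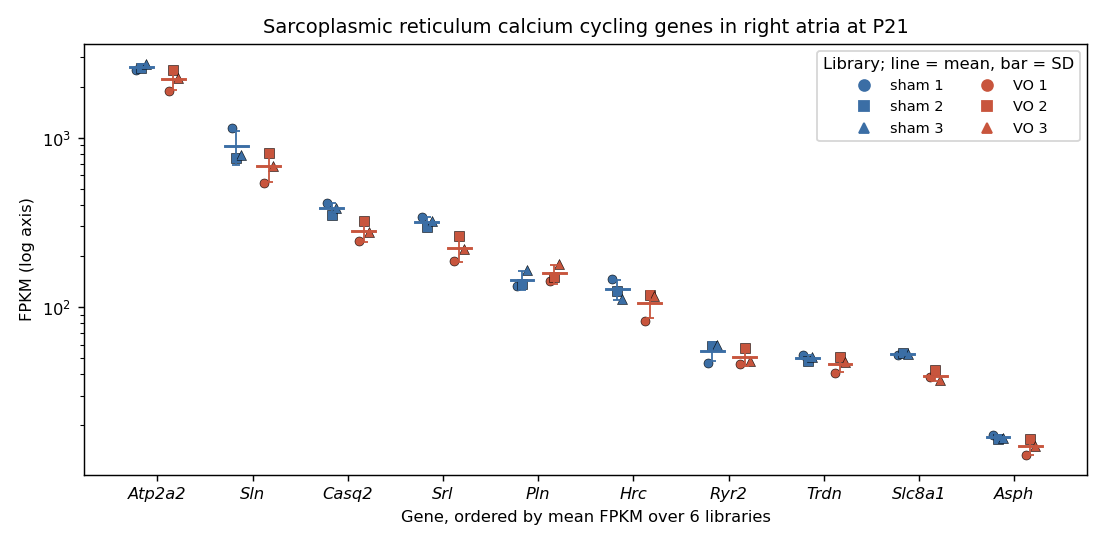
FPKM of the 10 SR calcium cycling genes in each library on a log axis, sham in blue and VO in red, with the mean as a line and the SD of 3 libraries as a bar. Atp2a2 lies above 1899 FPKM in every library, and Asph lies between 13.3 and 17.6 FPKM.

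To ask whether the machinery of calcium cycling differed in RAs under VO, each gene was compared between groups. In VO, 9 of the 10 genes had a lower fitted level and Pln a higher one. Of all 12627 tested genes, 6503 were lower and 6124 higher. With quantile normalization, however, Atp2a2, Sln, Ryr2 and Trdn were also above 0, as were Ryr2 and Trdn with TPM. Slc8a1, Srl and Casq2 were lowest against sham, at 0.74, 0.69 and 0.73 times the sham level in the fit. None of the 10 passed the threshold of adjusted p under 0.05 in limma, where adjusted p ran from 0.344 to 0.705, and only 0.00792% of all tested genes were lower past that threshold. At an unadjusted p under 0.05, 3 of the 10 were lower, against 8.08% of all tested genes, and 0 were higher, against 3.89%. With voom on the recovered fragments the counts were also 0 past the adjusted threshold and 3 lower at an unadjusted p under 0.05. There, 915 of all 12627 tested genes were lower at that level. In bulk tissue, fewer cardiomyocytes and less RNA of a gene per cardiomyocyte cannot be told apart.

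The 3 VO libraries lay wholly below the 3 sham libraries for 4 of the 10 genes, Atp2a2, Casq2, Srl and Slc8a1, against 12.9% of all tested genes. With TPM the number was 3, but all tested genes were not counted there, so it is not comparable with the 12.9%. With voom it was 3 of the 10, beside 1432 of all 12627 tested genes. For 0 of the 10 did VO lie wholly above sham, against 8.25% of all tested genes. The median log2 fold change of the 10 genes was -0.26, beside -0.01 for all tested genes. VO 1 was the lowest of all libraries for 8 of the 10 genes, and VO 2 was the highest VO library for 9. Without VO 1 the median was -0.12 and the number of genes wholly below sham was 3, while without VO 2 this number was 7. With a library left out, groups separate more easily, and the share of all tested genes was not counted for these settings. The 7 is thus not comparable with the 12.9%.

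**Figure D2:**
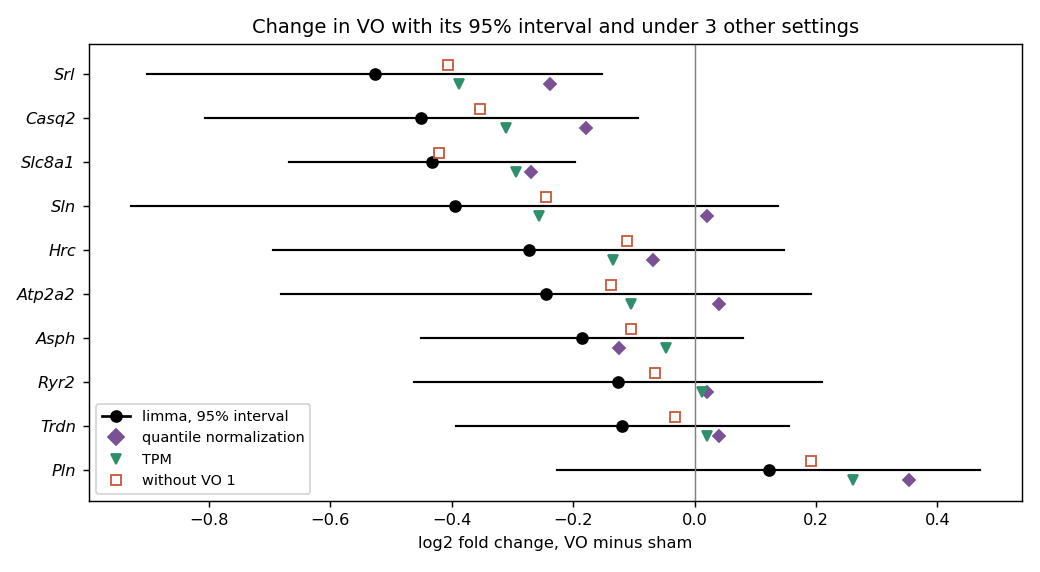
Log2 fold change of each gene, VO minus sham, with its 95% interval from limma (black), and its value with quantile normalization (diamonds), with TPM (triangles) and without VO 1 (open squares). The intervals of Srl, Casq2 and Slc8a1 lie below 0, and every value of Pln shown lies above 0, from 0.12 to 0.35.

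Atp2a2 (ENSMUSG00000029467, chr5:122453513-122502225, minus strand), the uptake pump, was read at 2510.4, 2582 and 2743 FPKM in the sham libraries and at 1899, 2504 and 2251 FPKM in VO. In FPKM, all VO libraries lay below all sham libraries, but VO 2 missed the lowest sham library by a narrow margin. As a share of the fragments on genes, VO 2 at 1.55% lay above sham 1 at 1.44%. The means were 2612 ± 119 FPKM in sham and 2218 ± 304 in VO (SD, n = 3 libraries; log2 fold change -0.24, standard error 0.18, adjusted p = 0.555). Its 95% interval ran from -0.68 to 0.19, and the log2 fold change was 0.04 with quantile normalization. The spread of the pump was wider among VO libraries, at 13.7% of the mean, than among sham libraries, at 4.56%, a difference that was not tested.

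Pln (ENSMUSG00000038583, chr10:53337667-53345987, plus strand), whose protein lowers the calcium affinity of the pump until it is phosphorylated, was read at 133, 136 and 166 FPKM in sham and at 142, 151 and 181 FPKM in VO. The groups overlapped, since sham 3 exceeded VO 1 and VO 2. The means were 144.9 ± 18.1 and 158 ± 20.2 FPKM (SD, n = 3 libraries; log2 fold change 0.12, standard error 0.15, adjusted p = 0.705). Its log2 fold change was above 0 in all 15 settings tried, from 0.02 to 0.35, with no unadjusted p under 0.05 in any of them.

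Sln (ENSMUSG00000042045, chr9:53850164-53854560, plus strand), the atrial inhibitor of the pump, was read at 1134, 759 and 794 FPKM in sham and at 543, 808 and 685 FPKM in VO. It had the widest spread of the 10 genes within sham, 23.2% of the mean, with sham 1 above the other sham libraries, and VO 2 exceeded sham 2 and sham 3. The means were 896 ± 207 and 679 ± 133 FPKM (SD, n = 3 libraries; log2 fold change -0.40, standard error 0.23, adjusted p = 0.469). Without sham 1 the log2 fold change was -0.22, and with quantile normalization it was 0.02.

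Ryr2 (ENSMUSG00000021313, chr13:11553102-12106945, minus strand), the release channel, was read at 46.8, 59.1 and 59.4 FPKM in sham and at 46.1, 57.0 and 48.1 FPKM in VO. Sham 1 was nearly as low as VO 1, the lowest library, and the groups overlapped. The means of 55.1 ± 7.18 and 50.4 ± 5.81 FPKM (SD, n = 3 libraries) differed by -0.13 in log2 fold change, with a standard error of 0.14 (adjusted p = 0.684), and this value was 0.01 with TPM and 0.02 with quantile normalization. Without sham 1 it was -0.24.

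The partners of the release channel also overlapped between groups. Trdn (ENSMUSG00000019787, chr10:33080554-33476709, plus strand), an anchor in the junctional SR membrane, was read at 51.9, 47.8 and 50.6 FPKM in sham and at 40.8, 50.7 and 47.4 FPKM in VO (log2 fold change -0.12, standard error 0.12, adjusted p = 0.636). VO 1 was the low library, and without it the log2 fold change of Trdn was -0.03. Asph (ENSMUSG00000028207, chr4:9448069-9669344, minus strand) was read at 17.6, 16.5 and 16.9 FPKM in sham and at 13.3, 16.6 and 15.04 FPKM in VO (log2 fold change -0.19, standard error 0.11, adjusted p = 0.486). Only VO 2 reached the sham range of Asph. This locus encodes aspartate beta-hydroxylase as well as junctin, with 15 coding transcripts whose complete frames run from 197 to 741 codons, and a value per gene does not separate them. The same holds for the 7 coding transcripts of Trdn and for the frames of 998 and 1044 codons of Atp2a2.

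Among the lumenal genes, Casq2 and Srl lay wholly below sham in VO and Hrc did not. Casq2 (ENSMUSG00000027861, chr3:102086415-102146514, plus strand), the main calcium store of the cardiac SR, was read at 413, 352 and 384 FPKM in sham and at 244, 324 and 276.5 FPKM in VO. The groups did not overlap. The means were 383 ± 30.7 and 282 ± 40.4 FPKM (SD, n = 3 libraries; log2 fold change -0.45, standard error 0.15, unadjusted p = 0.0204, adjusted p = 0.404). The unadjusted p was 0.0515 without sham 1, 0.0613 without sham 3 and 0.0572 without VO 3.

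Srl (ENSMUSG00000022519, chr16:4480216-4541816, minus strand), which encodes the calcium-binding glycoprotein sarcalumenin, had the lowest log2 fold change of the 10 genes. It was read at 341, 297 and 320.0 FPKM in sham and at 187, 264 and 219 FPKM in VO, without overlap. The means were 319 ± 21.7 and 224 ± 39.0 FPKM (SD, n = 3 libraries; log2 fold change -0.53, standard error 0.16, unadjusted p = 0.0126, adjusted p = 0.404) with a 95% interval from -0.90 to -0.15. Hrc (ENSMUSG00000038239, chr7:45335290-45338974, plus strand) was read at 145, 125 and 111 FPKM in sham and at 83.2, 117 and 117 FPKM in VO. Its groups overlapped, and its log2 fold change was -0.27 (standard error 0.18, adjusted p = 0.506), or -0.11 without VO 1 and -0.17 without sham 1.

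Slc8a1 (ENSMUSG00000054640, chr17:81388691-81649607, minus strand), the surface exchanger, had the smallest p of the 10 genes. It was read at 52.1, 53.7 and 53.1 FPKM in sham and at 38.5, 42.3 and 36.9 FPKM in VO, so the sham libraries lay close together, with an SD of 1.55% of their mean, and every VO library lay well below them. The means were 52.9 ± 0.823 and 39.3 ± 2.78 FPKM (SD, n = 3 libraries; log2 fold change -0.43, standard error 0.10, unadjusted p = 0.00334, adjusted p = 0.344). Its log2 fold change stayed between -0.49 and -0.27 over the 15 settings. These values, and the ratio of Slc8a1 to Atp2a2 below, rest on a gene model of 2934 bases, against 18807 bases of annotated exons. The study had named this gene from these samples, so its direction is not independent evidence. The study took the gene from those it called lower with DESeq2 at an adjusted p under 0.05. That is another test than the limma fit here, in which Slc8a1 did not pass. The paper also reported Slc8a1 as significantly lower in VO by quantitative PCR, and whether the same RNA was used is not stated. The primers used for its quantitative PCR are shown because they mark the measured place in the transcript.
Slc8a1 forward: CTTCCCTGTTTGTGCTCCTGT
Slc8a1 reverse: AGAAGCCCTTTATGTGGCAGTA
They matched chr17:81388750-81388770 and chr17:81388693-81388714 on GRCm38, both in exon 8 and inside the coding sequence of an annotated transcript, and were found in 4 of the 6 annotated transcripts.

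The ratios between genes within a library remove any factor that a library's genes share. Atp2a2 is the denominator in 3 of them, and 5 ratios were tested in all, with an exact permutation test over libraries that cannot give a p under 0.1 with 3 against 3. The ratio of Pln to Atp2a2 was 0.0530, 0.0527 and 0.0604 in the sham libraries and 0.0749, 0.0601 and 0.0802 in VO. It was higher in VO in 8 of 9 pairs of libraries, with sham 3 just above VO 2. The difference of the log2 ratios was 0.37 (standard error 0.14, 1.29-fold, two-sided exact p = 0.2, adjusted 0.25 over the 5 ratios), and it stayed between 0.28 and 0.49 with any 1 library left out.

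The ratio of Sln to Atp2a2 was 0.452, 0.294 and 0.289 in sham and 0.286, 0.323 and 0.304 in VO. Apart from sham 1, all libraries lay within 0.286 to 0.323, sham and VO interleaved. The difference of the log2 ratios was -0.15 (standard error 0.22, two-sided exact p = 0.8, adjusted 0.8), and without sham 1 it was 0.06. In FPKM, Sln exceeded Pln by 8.53, 5.58 and 4.79 times in sham and by 3.82, 5.37 and 3.79 times in VO, a difference of -0.52 in log2 ratio (standard error 0.30, two-sided exact p = 0.2, adjusted 0.25) that was -0.28 without sham 1.

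Casq2 to Ryr2, the store against the channel, was 8.82, 5.95 and 6.46 in sham and 5.29, 5.69 and 5.74 in VO. The groups did not overlap, by a margin of 5.74 against 5.95. The log2 difference was -0.32 (standard error 0.18, two-sided exact p = 0.1, the smallest possible, adjusted 0.25), or -0.15 without sham 1. Slc8a1 to Atp2a2 was 0.0207, 0.0208 and 0.0193 in sham and 0.0203, 0.0169 and 0.0164 in VO, a log2 difference of -0.19 (standard error 0.10, two-sided exact p = 0.2, adjusted 0.25). Here VO 1 lay within the sham range, and without it the difference was -0.28.

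**Figure D3:**
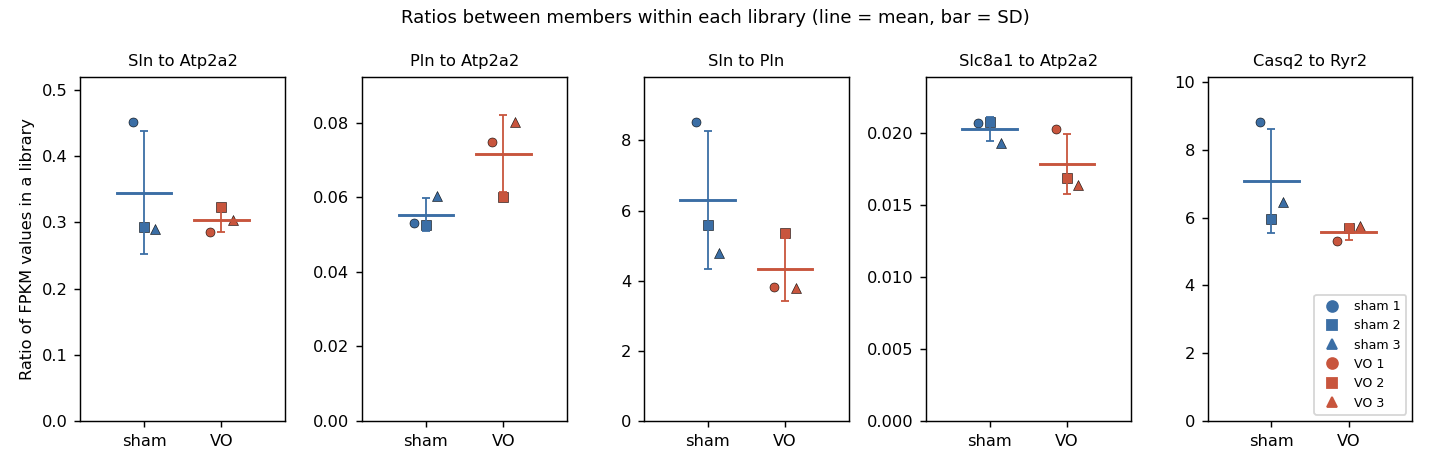
Ratios of FPKM between pairs of the genes within each library, each panel with its own axis from 0, sham in blue and VO in red, with the mean as a line and the SD of 3 libraries as a bar. Pln to Atp2a2 is higher in VO apart from the overlap of sham 3 (0.0604) and VO 2 (0.0601), and sham 1 stands apart in the ratios of Sln to Atp2a2 (0.452) and Casq2 to Ryr2 (8.82).

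Markers of the cell types in the tissue were read in the same libraries. For comparison, 6503 of all 12627 tested genes were lower and 6124 higher. At an unadjusted p under 0.05 in limma, 8.08% of all were lower and 3.89% higher. Of 8 cardiomyocyte genes (Myh6, Ttn, Tnnt2, Tnni3, Tnnc1, Actn2, Mybpc3 and Ldb3, of which Myh6, Tnnt2 and Actn2 were named by the study from these samples), 8 had a lower fitted level in VO and 5 did so at an unadjusted p under 0.05. Their summed level was 6030.5 to 6630.3 FPKM in sham and 3418 to 5565 in VO, with VO 1 lowest. All 4 atrial genes had a lower fitted level, 3 at an unadjusted p under 0.05, with a median log2 fold change of -0.86. Of 5 macrophage genes, 5 had a higher fitted level in VO, with summed levels of 79.0 to 116 FPKM in sham and 90.9 to 240.3 in VO, but 1 did so at an unadjusted p under 0.05, and VO 1 alone lay outside the sham range of the sums. The part of these marker levels in the values of the SR genes was not tested. Fibroblast genes (3 of 5 higher, 0 at an unadjusted p under 0.05 in either direction, summed levels 549.9 to 594 against 556 to 695 FPKM) and endothelial genes (3 of 4 higher, 1 of them at an unadjusted p under 0.05, summed levels 145 to 151 against 156 to 162 FPKM) had medians of 0.10 and 0.16. Of 8 fast skeletal muscle genes 2 passed the filter on low values, both lower and 1 at an unadjusted p under 0.05, the summed level was 7.12 to 9.83 FPKM in sham and 1.07 to 6.25 in VO, and Myh1 was at 0 in every library. Among 4 ventricular genes, of which 3 were tested and 1 was lower at an unadjusted p under 0.05, Myl2 ran from 1.54 to 60.4 FPKM without following the groups, and the summed level was 121 to 308 FPKM in sham and 92.7 to 143 in VO.

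Each SR gene was therefore also set against the mean log2 level of the 8 cardiomyocyte genes in the same library, which was lower by 0.51 in VO. Relative to them, 9 of the 10 SR genes were higher in VO and Srl was level, with a log2 difference of -0.02, but 93.5% of all tested genes were higher on this scale, since the reference itself was lower. The median difference was 0.25 for the 10 genes and 0.50 for all tested genes. Pln was higher by 0.63, Trdn by 0.39, Ryr2 by 0.38, Asph by 0.32 and Atp2a2 by 0.26, and for these 5 every VO library lay above every sham library, as it did for 55% of all tested genes. Hrc was higher by 0.23, Sln by 0.11, Slc8a1 by 0.07 and Casq2 by 0.06, with overlap between groups. The mean over the 10 genes was -1.29 ± 0.0151 in sham and -1.04 ± 0.115 in VO (SD, n = 3 libraries, log2 units), a difference of 0.24 that was 0.19 to 0.31 with any 1 library left out. The reference genes themselves ranged in log2 fold change from -0.75 for Tnnc1 to -0.29 for Ttn, and the -0.24 of Atp2a2 lay close to the value of Ttn.

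**Figure D4:**
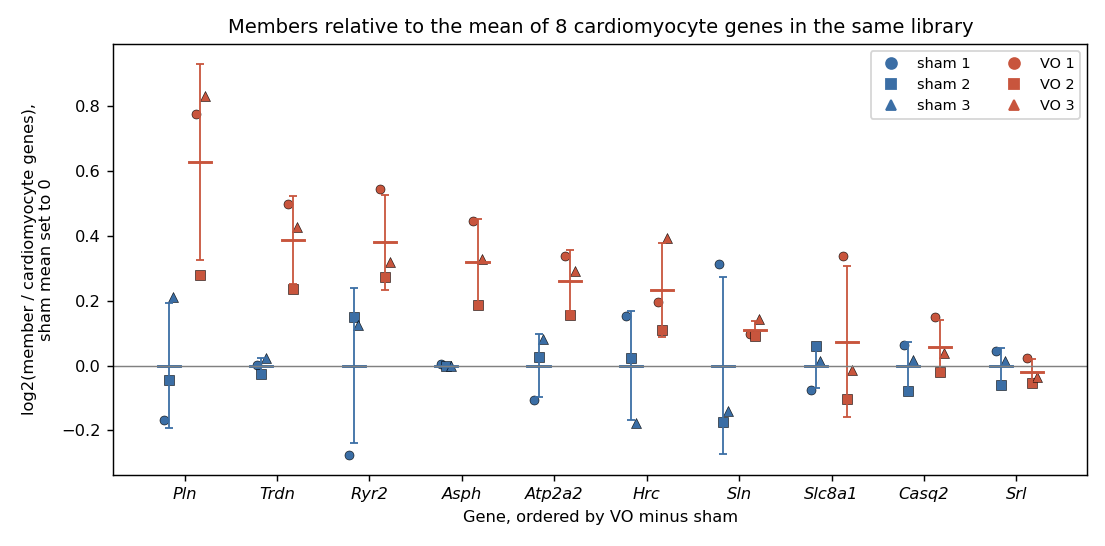
Log2 level of each SR gene minus the mean log2 level of 8 cardiomyocyte genes in the same library, with the sham mean set to 0, sham in blue and VO in red, the group mean as a line and the SD of 3 libraries as a bar. VO lies wholly above sham for Pln, Trdn, Ryr2, Asph and Atp2a2, as for 55% of all tested genes on this scale, and Srl is level at -0.02.

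A wider list of 51 calcium cycling genes held regulators, junctional proteins, kinases, phosphatases, paralogues and mitochondrial or store-operated calcium genes, and 43 of them were tested. In VO 27 had a lower and 16 a higher fitted level, with a median log2 fold change of -0.10. Among all 12627 tested genes, 6503 were lower and 6124 higher. At an unadjusted p under 0.05, 7 (16.3%) were lower and 2 (4.65%) were higher, beside 8.08% and 3.89% of all tested genes, so the share of higher genes was near the background. Of these, 0 passed the adjusted threshold in limma. With voom, 5 were lower and 2 higher at an unadjusted p under 0.05, beside 915 and 667 of all 12627 tested genes, and 0 passed the adjusted threshold. VO lay wholly below sham for 9 (20.9%) and wholly above for 2 (4.65%), beside 12.9% and 8.25% of all tested genes. Without sham 3 the number lower at an unadjusted p under 0.05 was 2, without VO 1 it was 3, and without sham 1 or sham 2 it was 4. Among all tested genes, 857 of 12681 were lower without sham 3 and 638 of 12542 without VO 1. Without sham 1 and sham 2 these numbers were 600 of 12660 and 794 of 12668. The number of list genes higher was 0 without VO 3, and 1 without VO 1 or without any 1 sham library. Higher genes among all tested numbered 495 of 12603 without VO 3 and 306 of 12542 without VO 1. Without sham 1, sham 2 and sham 3 they numbered 274, 328 and 309.

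Jph2, which holds the surface membrane close to the SR, had the smallest p of the list. It was read at 112, 109.9 and 103 FPKM in sham and at 44.5, 66.9 and 69.8 FPKM in VO, far apart (log2 fold change -0.87, standard error 0.18, unadjusted p = 0.00208, adjusted p = 0.325). Its relative Jph1 was lower by less (log2 fold change -0.37, unadjusted p = 0.0483). Tmem38a, a cation channel of the SR that balances charge during calcium release, was read at 171, 123 and 128 FPKM in sham and at 63.8, 112 and 86.7 FPKM in VO (log2 fold change -0.71, unadjusted p = 0.0180, adjusted p = 0.404). Hspb6, a small heat shock protein known to act on phospholamban dephosphorylation, was read at 88.1, 80.3 and 88.0 FPKM in sham and at 33.0, 69.3 and 66.8 FPKM in VO (log2 fold change -0.67, unadjusted p = 0.0459). The kinase gene Camk2g and the phosphatase gene Ppp2ca had log2 fold changes of -0.30 and -0.26 (unadjusted p = 0.0390 and 0.0425). The 2 genes with a higher level at an unadjusted p under 0.05 were Itpr2, an inositol trisphosphate receptor, at 3.07 ± 0.305 FPKM in sham and 4.01 ± 0.326 in VO, and Slc8b1, the mitochondrial sodium-calcium exchanger, at 4.05 ± 0.480 and 5.25 ± 0.190 FPKM (SD, n = 3 libraries). Both had a log2 fold change of 0.37 (unadjusted p = 0.0233 and 0.0187).

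Paralogues of the 10 genes were read at low levels. Atp2a1, the pump of fast skeletal muscle, was at 2.75 ± 0.512 FPKM in sham and 1.49 ± 0.666 in VO (SD, n = 3 libraries; log2 fold change -0.90, unadjusted p = 0.0216) with VO 2 inside the sham range. Atp2a3 was at 4.12 and 3.83 FPKM on average, Ryr3 at 2.08 and 1.69, and Ryr1 at no more than 0.0390 FPKM in any library. Casq1, the skeletal calsequestrin, was read at 13.9, 14.6 and 10.2 FPKM in sham and at 4.46, 7.70 and 14.1 FPKM in VO, with wide overlap (log2 fold change -0.69, standard error 0.39, adjusted p = 0.465). The exchangers Slc8a2 and Slc8a3 and the micropeptide gene Mrln were under the filter, at 0.468 FPKM or less. Arln, a further micropeptide regulator listed under 1810037I17Rik, was at 24.7 ± 6.35 and 20.4 ± 2.24 FPKM (SD, n = 3 libraries), and Strit1 was not matched by symbol.

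**Figure D5:**
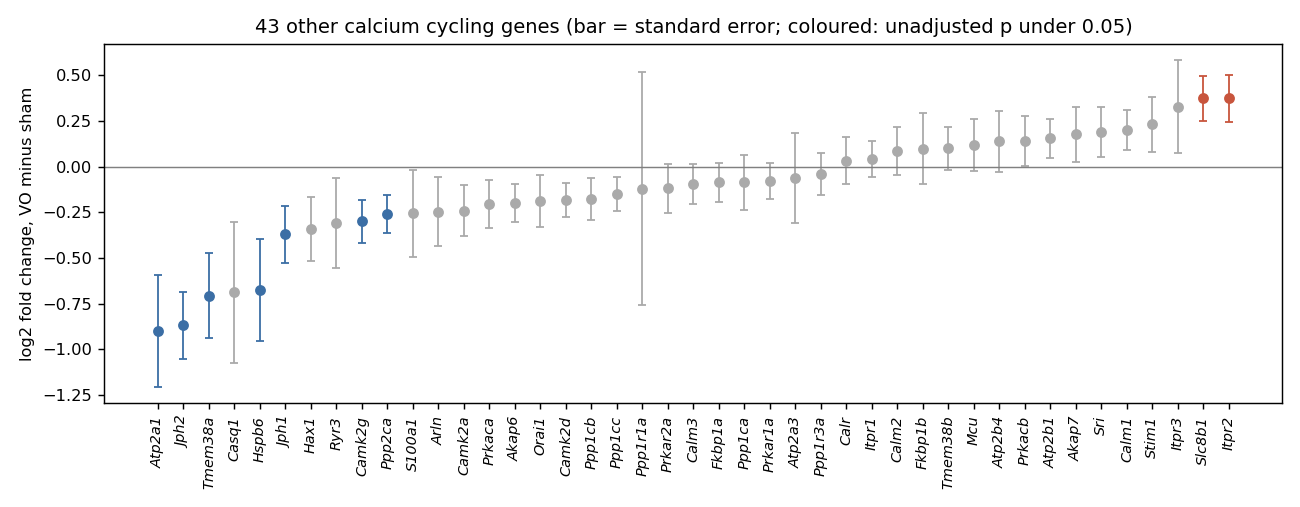
Log2 fold change, VO minus sham, of the 43 tested genes of the wider calcium cycling list, ordered by value, with the standard error as a bar. The 7 lower genes (blue) and 2 higher genes (red) with an unadjusted p under 0.05 run from Atp2a1 at -0.90 to Itpr2 at 0.37.

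The genes whose pattern over the 6 libraries was most like that of a given gene were found by the root mean square difference of log2 values centred on each gene's mean, as a description. Nearest to Atp2a2 were Lrrc8a (0.0170), Fbxo9 (0.0237) and Pbxip1 (0.0321). Among the SR genes Asph (0.0693) and Trdn (0.0862) came closest, at ranks 90 and 242 among the tested genes. Nearest to Ryr2 were Smoc1 (0.0334), Strip2 (0.0351) and Dsp (0.0446), the last encoding desmoplakin of the intercalated disc. Nearest to Sln were Mrpl23 (0.0420), Fntb (0.0428) and Pdrg1 (0.0455), and nearest to Pln were Optn (0.0338), Eefsec (0.0441) and Ttc7b (0.0459). The pump and its inhibitors did not follow each other closely on this measure, since Atp2a2 and Pln differed by 0.231, Atp2a2 and Sln by 0.229, and Sln and Pln by 0.395. Sln was nearer to Hrc (0.139) and Casq2 (0.141), which stood at ranks 468 and 488 among the tested genes. The measure also depends on how widely each gene varied around its own mean. That root mean square was 0.317 for Sln, 0.173 for Atp2a2 and 0.157 for Pln. The points share libraries and depth, and 6 libraries are few for a measure of this kind.

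RefSeq start sites on GRCm38.p6 were matched for 5 of the 10 genes, Pln, Ryr2, Casq2, Hrc and Slc8a1. The 250 bases before the start of Casq2, lower in every VO library, and of Pln, whose mean was higher, are shown as an example of each, in transcript direction.
Casq2 chr3:102086165-102086414, plus strand: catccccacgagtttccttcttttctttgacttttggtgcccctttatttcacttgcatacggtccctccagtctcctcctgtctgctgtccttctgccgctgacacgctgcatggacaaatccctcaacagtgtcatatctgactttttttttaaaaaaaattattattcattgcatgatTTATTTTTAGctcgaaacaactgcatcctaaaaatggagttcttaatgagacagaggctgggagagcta
Pln chr10:53337436-53337685, plus strand: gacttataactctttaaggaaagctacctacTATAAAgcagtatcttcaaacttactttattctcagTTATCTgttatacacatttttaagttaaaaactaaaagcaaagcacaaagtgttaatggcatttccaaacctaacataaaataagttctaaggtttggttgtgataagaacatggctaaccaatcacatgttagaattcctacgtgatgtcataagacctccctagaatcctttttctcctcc
Capitals mark matches, on either strand, to a search for the TATA letters TATAAA, to a GATA motif spelled AGATAA, to the muscle motif MCAT spelled CATTCC, and to the motifs MEF2 and CArG. Casq2 held 1 match to MEF2, 60 bases before the start, a motif present in 1.69% of 32851 promoters of the same length. Pln held TATAAA 214 bases and AGATAA 178 bases before the start, present in 12.4% and 9.99% of promoters. The window of Slc8a1 held AGATAA 63 bases before the start (its start lies 88780 bases from the gene start of the table), and those of Ryr2 and Hrc held none of these letters. MCAT and CArG, present in 12.6% and 1.47% of promoters, were found in 0 of the 5 windows. The guanine and cytosine content was 32.8% for Pln, 41.6% for Casq2 and 63.2% for Ryr2, beside a median of 52.4% over all promoters.

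Some of the 10 genes overlap other genes on the opposite strand, and whether strand was used in counting is not given in the sources used here. Pln shares 1644 exonic bases with Gm47644, at 2.67 FPKM, and 141 with Cep85l. Asph shares 2302 exonic bases with Clvs1, at 0.364 FPKM, and Atp2a2 shares 83 with Gm43361, at 0.189 FPKM. In the annotation, Slc8a1 shares 296 exonic bases with AC122399.1, which had no value here. The partners with a value were far below the SR genes themselves, but that does not show how fragments on shared bases were counted.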

How the data were processed

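RNA of 3 sham and 3 VO RAs was sequenced. Per the labels and methods, the authors aligned reads with HISAT2 2.0.5, counted them with featureCounts 1.5.0-p3 and deposited FPKM values. The submitters' processing notes name GRCm38, and coordinates were identical to GENCODE M21 for 98.4% of 54039 shared genes. The deposited table also holds gene length. An incomplete last line was left out. Multiplied by gene length, the FPKM values stood at whole steps in each library (tolerance 0.01 fragments), which gave fragment counts.

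Genes averaging 1 FPKM or more were compared on log2(FPKM + 0.1) after median-of-ratios scaling, with limma 3.58.1 in R 4.3.3 (trended variance, two-sided, Benjamini-Hochberg over 12627 genes, threshold 0.05), so fold changes of low genes are understated. The median-of-ratios factor of the FPKM values was 1.00213 in every library, so this scaling moved no library against another. Ratios were tested by exact permutation in Python 3.11.15 with scipy 1.17.1. Counting error is that of fragment counts only. Named were all 10 genes, list genes with an unadjusted p under 0.05, paralogues and small regulators, and the 3 genes nearest in pattern to Atp2a2, Pln, Sln and Ryr2. Members and lists were chosen with earlier results of these data known. Alternatives were a pseudocount of 1, no filter, a mean FPKM of at least 5, TPM, quantile normalization, robust variance, voom, a replicate block and each library left out. Same-numbered libraries deviated together with correlations of -0.108, 0.0112 and -0.0292, so numbers were not taken as pairs. Protein sequences were not used here. The label of the extraction names rat, while the organism label is mouse.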

Additional observations from a re-analysis of the deposited data

How the results depend on the processing

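No gene of the 10 passed the adjusted threshold under any of 14 alternatives. With quantile normalization the log2 fold change turned to 0.0395 for Atp2a2, 0.0199 for Sln, 0.0205 for Ryr2 and 0.0398 for Trdn, 0 of the 10 were lower at an unadjusted p under 0.05, 1 lay wholly below sham and their median was -0.0244. With TPM, Ryr2 turned to 0.0131, Trdn to 0.0201 and the median was -0.12. TPM also moved the median of all tested genes from -0.01 to 0.13, and the split of all genes at an unadjusted p under 0.05 from 1020 lower and 491 higher to 486 and 1085. The cause was not tested. In the wider list, at that level, 3 genes were lower and 5 higher with TPM, and 4 and 4 with quantile normalization. With a mean FPKM of at least 5, where fewer genes are tested, 0 were higher, beside 229 of all 7156. Among all 12627 tested genes, 834 were lower and 511 higher at that level with quantile normalization. How many of all genes lay wholly below sham with TPM or with quantile normalization was not counted.

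With the replicate block, 4 genes of the wider list were lower and 1 was higher, 2 of the 10 SR genes were lower, and all genes at an unadjusted p under 0.05 numbered 608 lower and 324 higher, with 0 past the adjusted threshold. Leaving out each library in turn, the number of the 10 genes wholly below sham ran from 3 to 7, without a count over all tested genes beside it. The number lower at an unadjusted p under 0.05 ran from 2 to 3, and their median from -0.35 to -0.12. The wider list had from 2 to 5 lower and from 0 to 2 higher. Among all tested genes at that level, from 600 to 1221 were lower and from 274 to 780 higher. The log2 difference of Sln to Atp2a2 ran from -0.26 to 0.0597, above 0 without sham 1. With 3 libraries in each group, the differences of Ryr2 and Pln were smaller than their standard errors.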
